A study of Mus musculus with 6 samples.

Results

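Toll-like receptors and Nod proteins are the germline-encoded sensors with which gut cells read microbial molecules. The members described here are the 7 Toll-like receptors Tlr1, Tlr2, Tlr3, Tlr4, Tlr5, Tlr7 and Tlr9, the cytosolic sensors Nod1 and Nod2, and the adaptor Myd88. They were chosen by gene symbol, and all 10 were found among the 16906 protein-coding genes of the deposited count table. RNA had been sequenced from mouse colon tissue, with 3 samples from normal mice and 3 from mice given TNBS (trinitrobenzenesulfonic acid), a hapten that provokes colitis. All mice were labelled as wild-type male C57BL/6J animals of 6 to 8 weeks and 20 to 22 g. TNBS had been delivered through the anus into the colon at 5% w/v, whereas the controls were labelled as normal feeding only, so the procedure and TNBS cannot be told apart. The labels give no number for the animals behind the samples, so what the p-values take as error is the spread among these 6 samples. That spread need not be the spread among single animals. Libraries of the same group differed in Y-linked and position genes, as given below.

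Toll-like receptors sense from the cell surface or from endosomes. Tlr2, with Tlr1 or Tlr6 as its partner, binds bacterial lipoproteins; Tlr4 binds lipopolysaccharide with the help of Lbp, Cd14 and Ly96; and Tlr5 binds flagellin. In endosomes, Tlr3 binds double-stranded RNA, Tlr7 single-stranded RNA and Tlr9 unmethylated CpG DNA. Nod1 and Nod2 bind fragments of bacterial peptidoglycan inside the cell and signal through the kinase Ripk2. Every Toll-like receptor listed here except Tlr3 signals through Myd88 to Irak kinases, Traf6 and NF-kB, while Tlr3, and Tlr4 from endosomes, use Ticam1. In the colon these receptors are carried by epithelial cells, macrophages, dendritic cells, B cells and stromal cells in different combinations.

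The promoters of the 3 members whose normal and TNBS values did not overlap, Tlr2, Tlr3 and Myd88, are shown because they carry, or do not carry, letters of the NF-kB motif. NF-kB is the factor that these receptors activate. The sequences are RefSeq's for GRCm38.p6, 5′ to 3′ on the minus strand, from 250 bases before to 50 bases after the annotated start, and capitals mark matches to a searched motif on either strand. The windows lie at chr3:83841559-83841858 for Tlr2, chr8:45410331-45410630 for Tlr3 and chr9:119339969-119340268 for Myd88.
Tlr2: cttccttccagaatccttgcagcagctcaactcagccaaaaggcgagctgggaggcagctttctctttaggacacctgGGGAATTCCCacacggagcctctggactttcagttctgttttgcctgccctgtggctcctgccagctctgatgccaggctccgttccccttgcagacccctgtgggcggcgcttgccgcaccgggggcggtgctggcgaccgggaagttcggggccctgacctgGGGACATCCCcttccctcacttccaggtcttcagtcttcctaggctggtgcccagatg
Tlr3: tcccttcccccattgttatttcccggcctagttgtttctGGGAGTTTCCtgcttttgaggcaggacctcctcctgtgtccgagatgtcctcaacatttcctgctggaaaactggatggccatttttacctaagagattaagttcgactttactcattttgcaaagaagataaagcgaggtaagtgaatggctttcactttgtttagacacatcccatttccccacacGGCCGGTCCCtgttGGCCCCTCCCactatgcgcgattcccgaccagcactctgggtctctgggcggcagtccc
Myd88: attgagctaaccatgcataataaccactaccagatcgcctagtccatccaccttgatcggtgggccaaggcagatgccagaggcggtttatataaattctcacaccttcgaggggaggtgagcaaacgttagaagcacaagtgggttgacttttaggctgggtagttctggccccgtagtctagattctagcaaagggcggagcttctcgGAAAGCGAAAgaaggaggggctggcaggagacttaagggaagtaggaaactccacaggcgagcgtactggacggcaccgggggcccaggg

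The NF-kB letters searched were GGGANNNNCC, and a run that matched on both strands was counted once. Positions below give the first base of a match, with the first transcribed base as 1. Tlr2 held 2 matches, at -172 and -8, and Tlr3 held 3, at -211, -23 and -9, of which the last pair lay on the opposite strand. Myd88 held no NF-kB match, but held the interferon-response core GAAANNGAAA at -40. By comparison, 20.7% of the 32851 mouse promoters in the RefSeq table held the NF-kB letters and 3.44% the interferon-response core. Of all 10 members, 8 matched an entry of that table. Among the others, Tlr5 held 1 NF-kB match at -20. Tlr9 held the AP-1 letters TGANTCA at -58 and the PU.1 letters GAGGAA at -112 and 13, and Tlr1 held GAGGAA at -23. AP-1 letters occurred in 7.81% and PU.1 letters in 28.3% of promoters. None of the 4 motifs matched in the windows of Nod1 or Nod2, and no matches overlapped. These are matches of letters, not binding sites.

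A further sequence bears on how Tlr1 was counted. Tlr1 (chr5:64924679-64933563 in GENCODE vM21 on GRCm38, the source of all gene positions here) lies beside Tlr6, and their coding sequences are identical over a run of 229 bases, which begins in codon 490 and ends in codon 566 of the 795 codons of Tlr1. It lies at chr5:64925537-64925765 in Tlr1 and at chr5:64953828-64954056 in Tlr6 (GRCm38), and is shown in the coding direction.
Tlr1 and Tlr6: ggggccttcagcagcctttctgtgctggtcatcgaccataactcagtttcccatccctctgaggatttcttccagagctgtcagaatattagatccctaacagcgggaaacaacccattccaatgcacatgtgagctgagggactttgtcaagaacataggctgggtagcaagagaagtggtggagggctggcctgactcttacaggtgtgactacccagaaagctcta

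Of the 50-base stretches in Tlr1 transcripts, 15.4% also occur in another gene, mainly Tlr6, so reads from that region could be split or assigned to either. Myd88 (chr9:119335934-119341411) shares 7.42% of its stretches, through an overlap of 290 exon bases with Acaa1a on the other strand, and Tlr3 (chr8:45395665-45411080) shares 5.3% with an antisense transcript. The other 7 members share at most 0.259%. Whether counting used the strand is not given in the sources used here, so counts in these overlaps are uncertain.

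The libraries held 15185569 to 23380492 counts, and libraries differed within both groups. Against the mean of the normal libraries, the sum of 4 Y-linked genes reached 0.697%, 103% and 38.2% in TNBS replicates 1, 2 and 3, although all mice were labelled male; single normal libraries reached 92.1% to 114%. Hoxb6, which marks position along the gut, was at 79.2 and 80.5 CPM (counts scaled to library size) in TNBS replicates 2 and 3, against 3.36 to 11.5 in the other 4 libraries. Hoxb13, another position gene, was at 106, 57.7 and 7.37 CPM in normal replicates 1, 2 and 3. In TNBS replicates 1, 2 and 3 it was at 21.4, 0.194 and 0.308 CPM. The Y-linked and position differences fall partly along the groups, so they cannot be fully told apart from TNBS. Their part in the fold changes below was not tested. Mitochondrially encoded genes took 0.563% to 0.951% of normal counts and 0.755%, 3.92% and 1.95% of those in TNBS replicates 1, 2 and 3. Among tissue markers, 8 epithelial genes summed to 9309 to 11057 CPM in normal colon and 7659 to 8944 in TNBS colon. Of these 8, 6 had lower fitted levels in TNBS colon, 3 of them with groups apart, and 2, Krt19 and Cdx2, had higher ones. EdgeR called 0 of the 8, with 3 at an unadjusted p under 0.05, and DESeq2 called 1. Over all genes tested, edgeR called 2.05%, 21.0% had an unadjusted p under 0.05, and 30.1% had groups apart. The 9 neutrophil markers in the table summed to 25.1 to 31.6 and 96.2 to 171 CPM, and S100a8 and S100a9 were at 0 to 0.453 CPM in normal colon and 10.99 to 56.9 in TNBS colon, while Csf3r was at 0.272 CPM or less in every library. Of 7 tested neutrophil markers 4 were called higher in TNBS colon, whereas 0 of 11 tested macrophage markers and 0 of 6 tested B cell markers were called by edgeR, with 2 of each at an unadjusted p under 0.05. DESeq2 called 1 of these macrophage markers, Itgam, which neutrophils share, and no B cell marker. Endothelial markers summed to 188 to 198 CPM in normal and 316 to 519.7 in TNBS colon, with Cdh5 and Vwf called higher by edgeR, and smooth muscle markers to 6845 to 8969 and 3703 to 5925 CPM. The macrophage marker Csf1r had 0 counts in every normal library and at most 7 in a TNBS library, although Adgre1, another macrophage marker, was at 8.40 to 29.3 CPM. In bulk tissue, fewer cells of a type and less RNA per cell cannot be told apart.

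No sensor passed the test for a difference between TNBS and normal colon, and fitted log2 fold changes ran from -1.47 for Tlr9 to 0.66 for Myd88. All 10 members had enough counts to be tested, and edgeR's quasi-likelihood test called none at a Benjamini-Hochberg adjusted p under 0.05. DESeq2 and limma-voom also called none. Over all 14126 genes tested, 2.05% were called, 0.906% with higher and 1.14% with lower values in TNBS colon. Unadjusted, 3 members had a p under 0.05, Tlr2 and Myd88 with higher and Tlr3 with lower values in TNBS colon, against 21.0% of all genes. For the same 3 members, 30% of the set, all TNBS values lay on the same side of all normal values, as they did for 30.1% of all genes. Both shares lie near or little above the background and are no result about the members. The median log2 fold change was -0.10 over the members and 0.0073 over all genes tested.

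**Figure D1:**
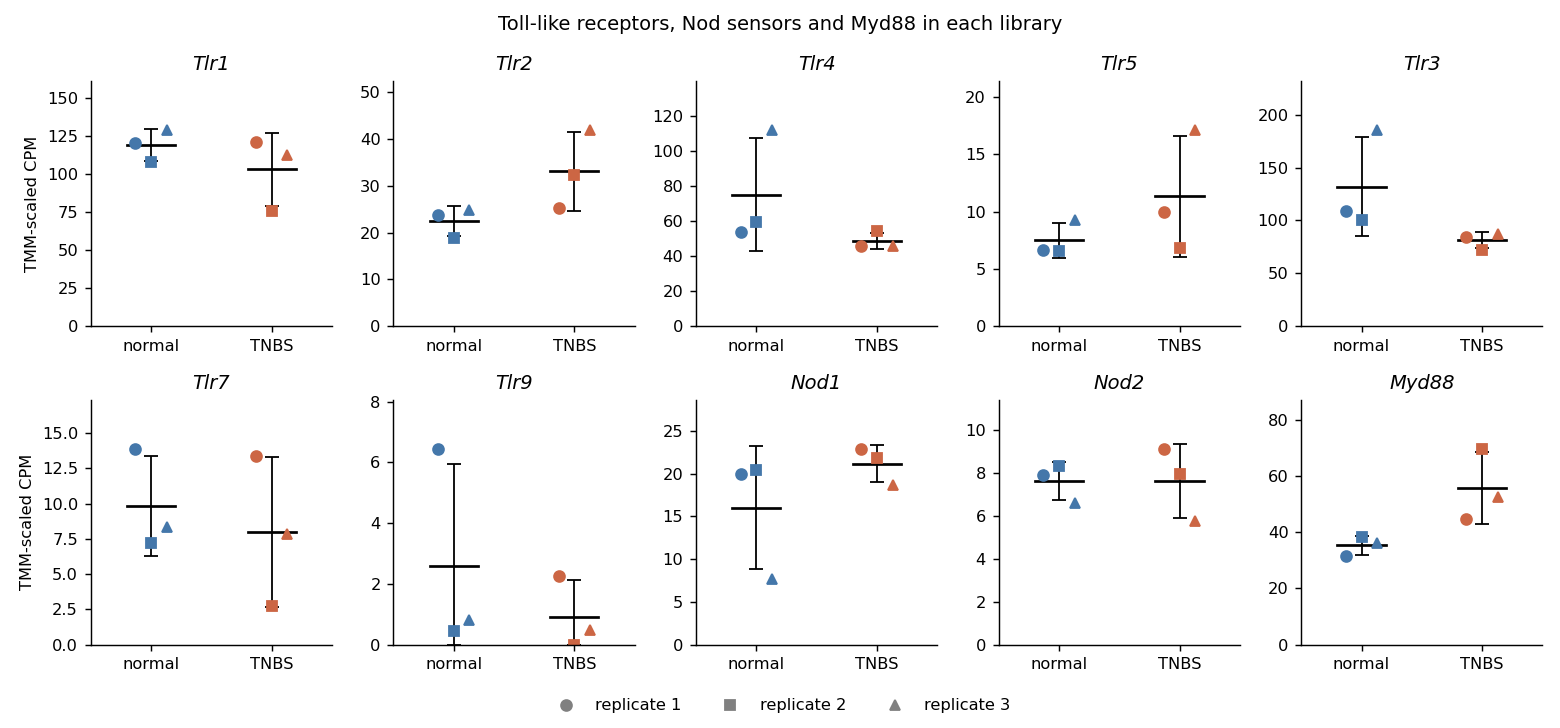
TMM-scaled CPM of each gene (y axis, from 0, with its own scale) in 3 normal and 3 TNBS libraries; symbols give the replicate number, the line the mean and the whiskers 1 SD, drawn no lower than 0. Tlr2 and Myd88 were higher and Tlr3 was lower in all 3 TNBS libraries than in any normal library, while the other 7 genes overlapped.

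Levels of different genes were compared per kilobase of exon, as scaled CPM divided by exon length (RPKM). In normal colon Tlr1 had the highest level, 35.5 ± 3.17 RPKM (SD, n = 3), followed by Tlr3 at 25.3 ± 9.0. Myd88 stood at 13.7 ± 1.32, Tlr4 at 13.5 ± 5.76 and Tlr2 at 7.46 ± 1.07 RPKM. The remaining levels were 3.16 ± 1.42 for Nod1, 2.41 ± 0.878 for Tlr7, 1.56 ± 0.318 for Tlr5, 1.52 ± 0.179 for Nod2 and 0.739 ± 0.968 for Tlr9. In this order the libraries of neighbours were apart for Tlr3 above Myd88, Tlr4 above Tlr2 and Tlr2 above Nod1, and overlapped for the other 6 pairs. The flagellin receptor and both Nod sensors were among the scarcer members.

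In TNBS colon Tlr1 was again highest, at 30.8 ± 7.20 RPKM, and Myd88 came next at 21.6 ± 5.00, ahead of Tlr3 at 15.6 ± 1.49. Tlr2, at 10.996 ± 2.80, stood above Tlr4, at 8.72 ± 0.867, with overlapping libraries. Nod1 was at 4.16 ± 0.429 RPKM, Tlr5 at 2.36 ± 1.10, Tlr7 at 1.95 ± 1.30, Nod2 at 1.52 ± 0.343 and Tlr9 at 0.262 ± 0.345. Neighbours whose libraries were apart were Myd88 above Tlr3, Tlr4 above Nod1, Nod1 above Tlr5 and Nod2 above Tlr9. With the longest transcript as the length in place of all exons, Tlr4 moved above Myd88 in normal colon and above Tlr2 in TNBS colon, with overlapping libraries in both cases. With that length Tlr3 and its new neighbour Tlr4 overlapped in normal colon, and so did the libraries of Myd88 and Tlr3 and of Nod1 and Tlr5 in TNBS colon.

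**Figure D2:**
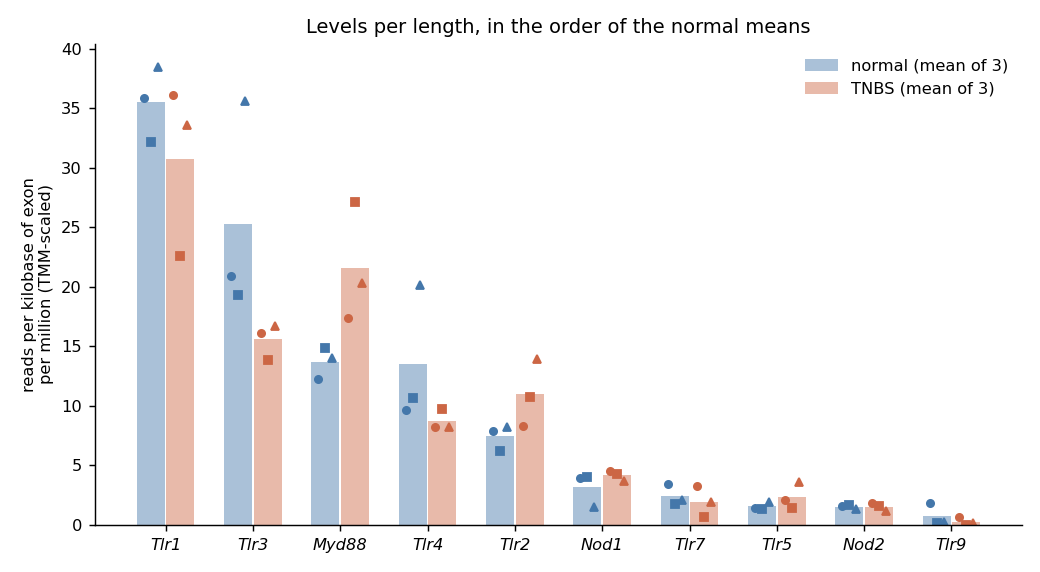
Level per length in RPKM, TMM-scaled (y axis, from 0), for each gene; bars give the mean of 3 libraries and points single libraries, ordered by the normal mean. Tlr1 was highest in both groups, and Nod1, Nod2, Tlr5, Tlr7 and Tlr9 stayed under 5 in every library.

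Among the cell-surface receptors, Tlr2 and Tlr5 had higher means and Tlr1 and Tlr4 lower means in TNBS colon, and the groups were apart for Tlr2 alone. Tlr2 (chr3:83836272-83841767), the lipoprotein receptor, stood at 23.8, 18.8 and 24.8 CPM in normal replicates 1, 2 and 3 and at 25.2, 32.3 and 42.0 in TNBS replicates 1, 2 and 3. All TNBS values lay above the normal ones, TNBS replicate 1 by little and TNBS replicate 3 by the most. The log2 fold change was 0.56 with an SE of 0.25, a fold of 1.47, and edgeR's quasi-likelihood test gave an adjusted p of 0.236. Summed neutrophil markers, higher in every TNBS library than in any normal one, stood at 122, 171 and 96.2 CPM in TNBS replicates 1, 2 and 3. Their part in the Tlr2 values was not tested.

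Tlr4 (chr4:66827584-66930284), the lipopolysaccharide receptor, stood at 53.8, 59.3 and 112 CPM in normal colon and at 45.9, 54.0 and 45.5 in TNBS colon. Normal replicate 3 was far above all other libraries, and TNBS replicate 2 reached just above normal replicate 1. The log2 fold change of -0.63, with an SE of 0.28 and an adjusted p of 0.243 by edgeR, moved to -0.22 without normal replicate 3. Most of its lower TNBS mean thus rested on that library.

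Tlr1, the partner of Tlr2, stood at 120.2, 108 and 129 CPM in normal colon and at 121, 75.6 and 112 in TNBS colon. The groups overlapped, with TNBS replicate 2 lowest. The fold of 0.866 had a 95% interval of 0.625 to 1.20. Tlr6, with which Tlr1 shares the run shown above, was much scarcer, at 3.14 to 4.19 CPM in normal colon and 1.23 to 4.36 in TNBS colon, and was likewise lowest in TNBS replicate 2.

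Tlr5 (chr1:182954788-182976044), the flagellin receptor, stood at 6.67, 6.52 and 9.23 CPM in normal colon and at 9.99, 6.85 and 17.1 in TNBS colon. TNBS replicate 3 was the high value, and TNBS replicate 2 lay within the normal range. The fold of 1.52 had a 95% interval of 0.826 to 2.78, and the log2 fold change of 0.60 moved to 0.18 without TNBS replicate 3.

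The endosomal receptors all had lower means in TNBS colon over all libraries, though Tlr7 and Tlr9 turned with 1 library left out, and Tlr3 was the one whose groups were apart. Tlr3, the receptor for double-stranded RNA, stood at 109, 101 and 186 CPM in normal colon and at 84.0, 72.4 and 87.1 in TNBS colon. Every TNBS value was under every normal value, and normal replicate 3 was the highest by a wide margin. The log2 fold change was -0.70 with an SE of 0.25, a fold of 0.617, with an adjusted p of 0.168 by edgeR's quasi-likelihood test. Without normal replicate 3 it was -0.37. Summed epithelial markers and summed smooth muscle markers were likewise lower in all TNBS libraries. The smooth muscle sum was also highest in normal replicate 3, at 8969 CPM, whereas the epithelial sum was highest in normal replicate 2. The part of either in the lower Tlr3 values was not tested.

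Tlr7 (chrX:167304929-167330558), the receptor for single-stranded RNA, stood at 13.9, 7.20 and 8.37 CPM in normal colon and at 13.4, 2.71 and 7.85 in TNBS colon. The first replicate of each group was high, and TNBS replicate 2 was the lowest of the 6. The fold of 0.814 had a 95% interval of 0.352 to 1.88, which holds both a large fall and a near doubling of the level. Its log2 fold change of -0.30 turned to 0.05 without normal replicate 1 and to 0.11 without TNBS replicate 2. Of 11 tested macrophage markers 5 were also lowest in TNBS replicate 2, such as Adgre1 at 8.40 CPM, while the other 6 were not, and Itgam, Mertk and Cd163 stood above every normal library there. All 12 macrophage markers summed to 349.5 CPM in TNBS replicate 2, against 423 to 766 in the other libraries, and their part in the low Tlr7 value was not tested.

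Tlr9 (chr9:106222598-106226883), the CpG DNA receptor, was the scarcest member and the most uneven. It had 148, 10 and 16 counts in normal colon and 50, 0 and 9 in TNBS colon, or 6.45, 0.453 and 0.807 CPM against 2.27, 0 and 0.462. Normal replicate 1 held most of the reads, and the 0 in TNBS replicate 2 allows up to 0.194 CPM, the level of 3 counts. The fitted log2 fold change of -1.47 had an SE of 1.36 and moved to 0.56 without normal replicate 1. The B cell marker Ms4a1 was highest in the same library and stood at 44.1, 2.45 and 0.101 CPM in normal colon and at 2.54, 2.71 and 5.28 in TNBS colon. The 7 B cell markers summed to 143, 18.5 and 4.34 CPM in normal colon and to 11.4 to 21.7 in TNBS colon. Their part in the Tlr9 counts was not tested.

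Neither Nod sensor was called. Nod1 (chr6:54923949-54972612), which binds peptidoglycan fragments that hold diaminopimelic acid, stood at 20.0, 20.4 and 7.72 CPM in normal colon and at 22.9, 21.8 and 18.7 in TNBS colon. Normal replicate 3 was low, and the other 5 libraries lay close together. The log2 fold change of 0.40 (SE 0.36) moved to 0.07 without normal replicate 3. Nod2 (chr8:88647315-88688474), the muramyl dipeptide sensor and a susceptibility gene for Crohn's disease in humans, stood at 7.89, 8.34 and 6.61 CPM in normal colon and at 9.13, 7.95 and 5.74 in TNBS colon. The groups overlapped fully, and its fold of 0.999 had a 95% interval of 0.601 to 1.66.

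Myd88, the adaptor shared by most of the receptors, had the smallest p of the members. It stood at 31.6, 38.2 and 36.1 CPM in normal colon and at 44.7, 69.9 and 52.4 in TNBS colon. The groups were apart, and TNBS replicate 2 was highest. The log2 fold change was 0.66 with an SE of 0.22, a fold of 1.58 with a 95% interval of 1.12 to 2.21, and edgeR's quasi-likelihood test gave an adjusted p of 0.142. Acaa1a, a peroxisomal thiolase gene whose exons overlap those of Myd88, stood at 35.1 to 59.7 CPM in normal colon and at 50.1 to 52.4 in TNBS colon, with a log2 fold change of 0.04 and an SE of 0.22. The part of reads from the overlap in the Myd88 counts was not tested. The smallest adjusted p of any member under any alternative was 0.0652, for Myd88 without TNBS replicate 1.

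**Figure D3:**
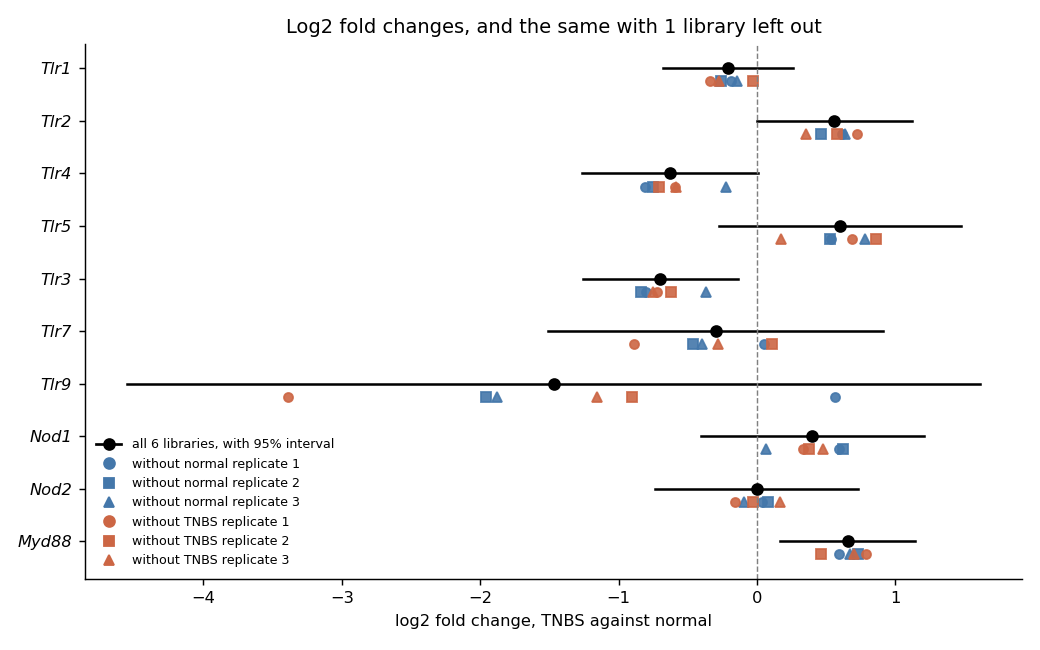
Log2 fold change, TNBS against normal (x axis), for each gene, with the 95% interval from all 6 libraries in black and the value with 1 library left out in colour. Leaving out normal replicate 3 brought Tlr4 to -0.22, Tlr3 to -0.37 and Nod1 to 0.07, and leaving out normal replicate 1 took Tlr9 to 0.56.

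The make-up of the receptor transcripts was described within each library, where scaling plays no part. The grouping and the ratios were chosen after the values were seen, so they carry no test. The 4 cell-surface receptors made up 67.7%, 70.4% and 64.5% of the summed level per kilobase of the 7 receptors in normal colon, and 73.2%, 75.3% and 75.9% in TNBS colon. The endosomal receptors made up the rest, 29.6% to 35.5% in normal and 24.1% to 26.8% in TNBS colon. Tlr2 took 7.72% to 9.75% in normal colon and more in every TNBS library, at 11.1%, 18.2% and 17.8%. Tlr5 took 1.72% to 1.90% and then 2.42% to 4.58%, and Tlr3 25.8% to 33.4% and then 21.4% to 23.5%. The shares of Tlr1, Tlr4, Tlr7 and Tlr9 overlapped between the groups. The summed level itself overlapped too, at 71.7 to 106.7 RPKM in normal and 59.0 to 78.0 in TNBS colon.

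**Figure D4:**
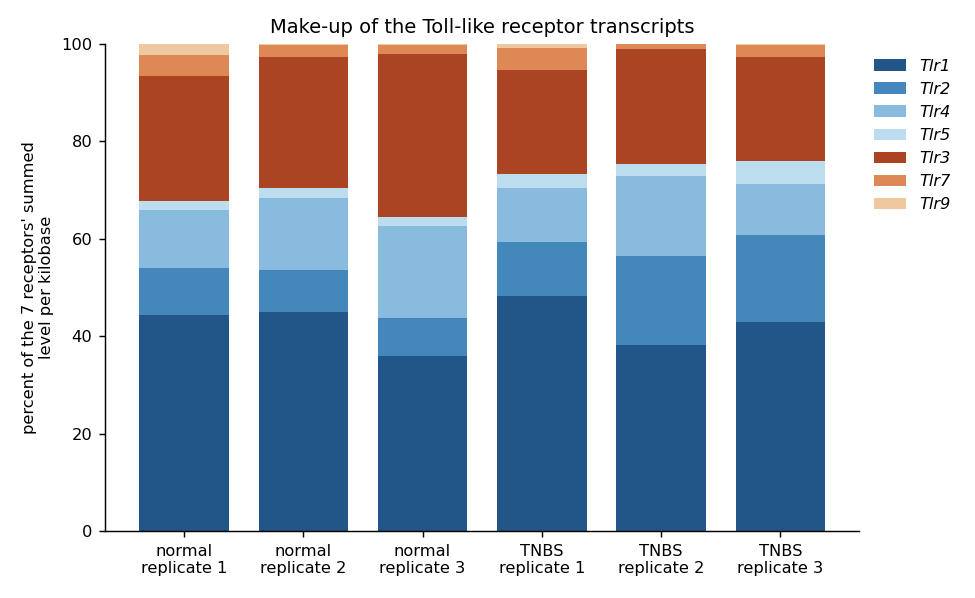
Share of each receptor in the summed level per kilobase of the 7 Toll-like receptors (y axis, percent), 1 bar per library, with cell-surface receptors in blue and endosomal ones in red to orange. The blue part reached 64.5% to 70.4% in the normal libraries and 73.2% to 75.9% in the TNBS libraries.

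Ratios of counts between members of the same library restated these values in another form and are no further support. There were 0.442, 0.317 and 0.222 Tlr2 reads per Tlr4 read in normal colon and 0.549, 0.598 and 0.922 in TNBS colon. Per Tlr3 read there were 0.290, 0.380 and 0.195 Myd88 reads in normal colon and 0.533, 0.965 and 0.602 in TNBS colon. Both ratios were higher in every TNBS library than in any normal library, and both were lowest in normal replicate 3. For Myd88 and Tlr3 this follows from their own values, which were apart in opposite directions. The ratio of Nod1 to Nod2 reads, from 1.17 to 2.53 in normal and from 2.51 to 3.26 in TNBS colon, overlapped.

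Around the sensors, the genes that edgeR called were co-receptors, inhibitors, targets, a transcription factor and a peptide transporter. Of 103 other genes of these pathways, 99 were in the table and 94 were tested, of which 7 were called higher and 2 lower in TNBS colon. Over all genes tested, edgeR called 0.906% higher and 1.14% lower, and 21.0% had an unadjusted p under 0.05. These shares are the background for the counts of each list below. With TNBS replicate 2 as the single TNBS library, Cxcl2 lost the call, at a log2 fold change of 4.07. With TNBS replicate 1 alone, Cd14, Lbp, Nfkbia and Saa3 lost it, at log2 fold changes of 1.37, 2.02, 0.99 and 4.30. The further Toll-like receptors Tlr6, Tlr8, Tlr11, Tlr12 and Tlr13 gave no call by edgeR, DESeq2 or limma-voom and no unadjusted p under 0.05, and their median log2 fold change was -0.22. Tlr6 had the smallest p of them, with a log2 fold change of -0.42 and an adjusted p of 0.693 by edgeR.

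Among 10 tested co-receptors and chaperones, Cd14 and Lbp rose by edgeR's test, and the median log2 fold change was 0.25. With limma-voom both lost the call, at adjusted p-values of 0.0557 and 0.0508, and DESeq2 called both and Hsp90b1, which was lower. Cd14, which passes lipopolysaccharide to Tlr4, stood at 19.7, 16.4 and 17.8 CPM in normal colon and at 46.2, 46.1 and 30.0 in TNBS colon. Every TNBS value was above every normal value, and the log2 fold change was 1.18 with an SE of 0.24 and an adjusted p of 0.0427 by edgeR. Its adjusted p was 0.0563 to 0.189 without normal replicate 1, 2 or 3 or TNBS replicate 2 or 3. Lbp, the lipopolysaccharide-binding protein, rose from 3.88, 3.85 and 1.72 CPM to 12.8, 33.5 and 17.7, a log2 fold change of 2.75 with an SE of 0.47 and an adjusted p of 0.0300 by edgeR. The same 5 omissions took its adjusted p to 0.0573 to 0.133. Ly96, which binds lipopolysaccharide in complex with Tlr4, had a log2 fold change of 0.11 and overlapping groups. Unc93b1, which carries the endosomal receptors to their compartment, had one of 0.61 with an adjusted p of 0.349 by edgeR.

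None of the 22 adaptors and kinases was called by edgeR, 2 had an unadjusted p under 0.05, and their median log2 fold change was -0.12. With limma-voom 0 were called and with DESeq2 2, Tab1 and Map3k8, the latter at an adjusted p of 0.00428. Map3k8, a kinase that links these receptors to ERK signalling, had the smallest p, with 5.15, 3.90 and 2.17 CPM in normal and 9.08, 18.0 and 10.5 in TNBS colon and an adjusted p of 0.0815 by edgeR. Without TNBS replicate 1 its adjusted p was 0.0388. For the kinases and adaptors next to the members, the log2 fold changes were 0.26 for Irak1, -0.31 for Irak4, 0.21 for Traf6, 0.53 for Ticam1 and 0.04 for Ripk2, with adjusted p-values of 0.391 to 0.931 by edgeR. Of these, the libraries of Irak1 alone were apart between the groups, as were those of 30.1% of all genes tested.

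Of 14 tested transcription factors edgeR called 1, Irf7, which fell, and the median log2 fold change was 0.31. DESeq2 called 4, Irf7, Irf8, Jun and Atf3, and limma-voom Irf7 alone. Irf7, the interferon regulatory factor downstream of Tlr7 and Tlr9, stood at 110.4, 127 and 153 CPM in normal colon and at 23.3, 42.5 and 51.5 in TNBS colon. All TNBS libraries were far under the normal ones, with a log2 fold change of -1.73 with an SE of 0.29 and an adjusted p of 0.0298 by edgeR. The adjusted p was 0.0565 to 0.125 without normal replicate 1, 2 or 3 or TNBS replicate 2.

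Of 20 inhibitors, Socs3 and Nfkbia rose, and the median log2 fold change was 0.12. Socs3, a suppressor of cytokine signalling, rose from 22.9, 13.05 and 14.6 CPM to 105, 156 and 92.7, a log2 fold change of 2.80 with an SE of 0.29 and an adjusted p of 0.00676 by edgeR. It was called under all 14 alternatives. Nfkbia, which holds NF-kB in the cytoplasm and is itself induced by it, rose from 86.5, 82.7 and 58.7 to 150.2, 319.6 and 201 CPM. Its log2 fold change was 1.56 with an SE of 0.29 and an adjusted p of 0.0368 by edgeR. Its adjusted p was 0.0805 to 0.152 without normal replicate 1, 2 or 3 or TNBS replicate 2 or 3.

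All 18 tested target cytokines and effectors had higher fitted levels in TNBS colon, against 7141 of all 14126 genes tested. The groups were apart for 10 of the 18 and overlapped for the rest, while 30.1% of all genes were apart in either direction. Neither count is support, since the list was chosen with earlier results of these data known. Csf3 and Cxcl2 also passed the count filter through their TNBS counts, which fixes their direction. Of the listed genes with too few counts to test, Il23a had a lower mean in TNBS colon, and Il12a and Il12b had higher ones. Of the 18, edgeR called 3: Lcn2, Saa3 and Cxcl2. DESeq2 called 8, these and Ccl5, Cxcl1, Icam1, Il1b and Nfkbiz, whereas limma-voom called Saa3 alone, with adjusted p-values of 0.0772 for Lcn2 and 0.179 for Cxcl2. Their median log2 fold change was 1.77. The median was the same with Csf3, which had 0 counts in every normal library, set at its lower bound. Lcn2, which binds bacterial siderophores, rose from 2.22, 2.45 and 2.17 CPM to 27.7, 190.4 and 73.0, a log2 fold change of 5.41 with an SE of 0.67 and an adjusted p of 0.0123 by edgeR. Without normal replicate 2 or 3 its adjusted p was 0.0721 and 0.0819. Saa3, an acute-phase serum amyloid protein, rose from 1.66, 1.13 and 6.51 to 60.4, 112 and 46.5 CPM, a log2 fold change of 4.57 with an adjusted p of 0.0170 by edgeR. Without normal replicate 1 or 2 its adjusted p was 0.0541 and 0.0735. Cxcl2, a chemokine that attracts neutrophils, rose from 0.654, 0.0453 and 0.353 to 19.5, 6.01 and 2.92 CPM, with an adjusted p of 0.0451 by edgeR. Of the 6 omissions of a library, that of TNBS replicate 3 kept the call, and the other 5 gave 0.0551 to 0.160. Neutrophils carry Cd14, Lcn2 and Cxcl2 transcripts themselves, and the part of the higher neutrophil markers in these values was not tested.

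Of 5 tested genes for the transport of muropeptides, the Nod ligands, Slc15a1 fell and none rose, with a median log2 fold change of 0.06. Slc15a1, the epithelial peptide transporter PepT1, stood at 82.5, 83.5 and 38.8 CPM in normal colon and at 4.496, 3.49 and 4.87 in TNBS colon. The TNBS libraries lay close together and far under the normal ones, with a log2 fold change of -3.99 with an SE of 0.35 and an adjusted p of 0.00248 by edgeR. The gene was called under all 14 alternatives. Hoxb6 was high in TNBS replicates 2 and 3 and summed epithelial markers were lower in all TNBS libraries, as given above. Their part in the lower Slc15a1 level was not tested.

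**Figure D5:**
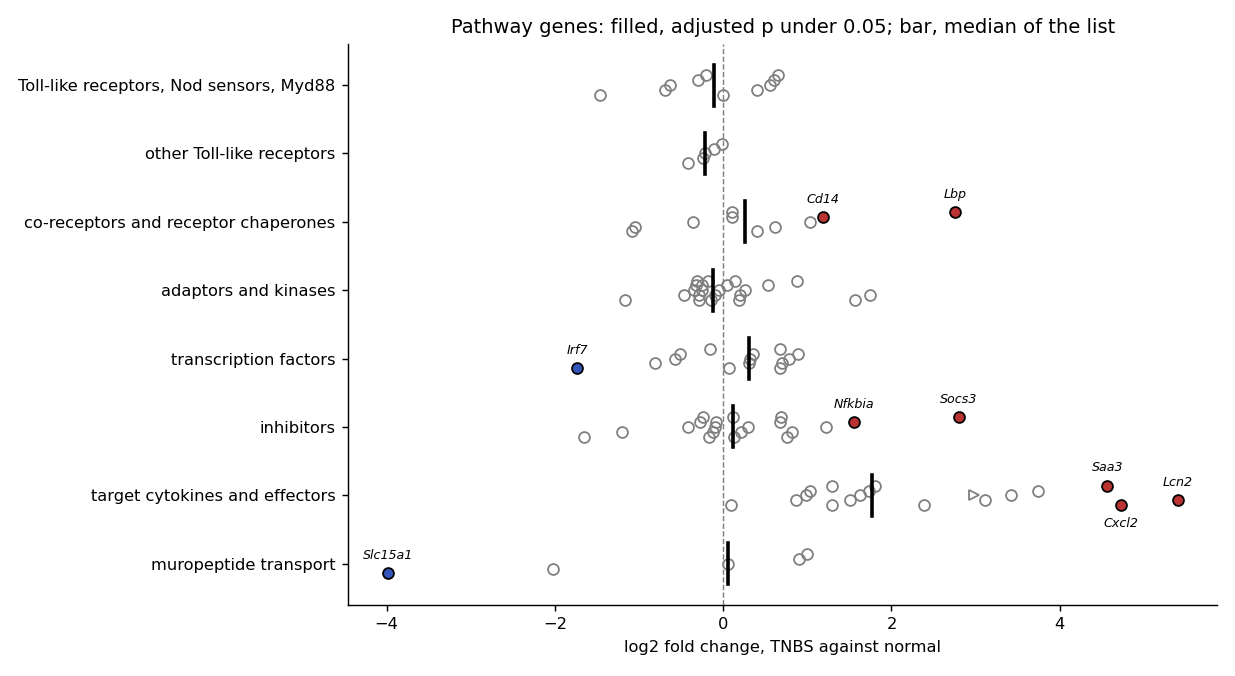
Log2 fold change, TNBS against normal (x axis), of every tested gene in each list (rows), with filled points for an adjusted p under 0.05, red higher and blue lower, and a black bar for the list median; the triangle is Csf3 at its lower bound. The sensors gathered between -1.47 and 0.66 with no call, and the targets had a median of 1.77.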

How the data were processed

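RNA-seq of 6 mouse colon samples, 3 normal and 3 TNBS, was analysed from the table of counts that the authors deposited: per the file headers, a whole-number read count for each gene in each library. CASAVA 1.8, HISAT2 and the build mm10 are listed in the submitters' processing notes; which tool counted the reads, with which annotation and whether by strand, is not given in the sources used here. A further 6 columns of normalized values were not used. Genes were matched by Ensembl identifier to GENCODE vM21 (GRCm38), which named 16732 of 16906 rows. Groups and replicate numbers came from the labels.

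Genes passing filterByExpr (minimum count 10, minimum total 15) were TMM-scaled and tested two-sided with edgeR 4.0.16 (quasi-likelihood, group as the only term) in R 4.3.3, with Benjamini-Hochberg adjustment over all 14126 genes. The steps were tested on simulated data. Levels per length (RPKM) are TMM-scaled CPM per kilobase of all exons of a gene. Totals of 15185569 to 23380492 counts set the precision: 3 counts correspond to 0.131 to 0.194 CPM, a limit that covers counting error only. Alternatives were other scalings, no filter, DESeq2 1.42.0, limma-voom (limma 3.58.1), a replicate block, omission of each library, and TNBS replicate 1 or 2 as the only TNBS library. Counts of a whole tissue move with its mix of cells.

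The members and lists were chosen with earlier results of these data known. Named genes were all members, up to 3 called genes with the smallest p per list (the 1 with the smallest p where none was called), and Cd14, Ly96, Unc93b1, Ripk2, Irak1, Irak4, Traf6 and Ticam1. Marker genes and Acaa1a, Csf3, Il12a, Il12b, Il23a, Hoxb6, Hoxb13, Tab1, Hsp90b1 and the genes called by DESeq2 were named for their values beside a result. Listed genes that the table lacks were not analysed here, and 1 marker gene is not reported here.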

Additional observations from a re-analysis of the deposited data

How the results depend on the processing

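No member was called under any of the 14 alternatives. The count of members at an unadjusted p under 0.05, 3 in all, ran from 1 (without TNBS replicate 2) to 3 when 1 library was left out, and was 0 with TNBS replicate 1 alone for TNBS and 4 with TNBS replicate 2 alone. The 289 genes called in all became 1345 with DESeq2, 18 (without normal replicate 2) to 1108 (without TNBS replicate 1) when 1 library was left out, 818 with TNBS replicate 2 alone and 63 with TNBS replicate 1 alone. The 9 pathway genes called became 21 with DESeq2, 5 with limma-voom and 2 to 15 when 1 library was left out. Fits with a lone TNBS library assume that it varies like the normal ones. Deviations of same-numbered libraries had correlations of 0.00547 to 0.0354, which gave no sign of pairing by number. With 3 libraries per group, this check cannot exclude pairing. The replicate block called 0 members, 360 genes in all and 12 pathway genes, and took Cd14 to an adjusted p of 0.0518 by edgeR.

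Of 140 alternative log2 fold changes of members, 128 kept their direction and 12, of 5 members, reversed. Nod2, 1 of these 5, had a log2 fold change of -0.001 over all libraries, so even a small shift turns its sign. With TNBS replicate 1 alone, Tlr1 was at 0.029, Tlr7 at 0.44, Nod2 at 0.26, Tlr6 at 0.25, Ly96 at -0.040 and Traf6 at -0.088. With TNBS replicate 2 alone, Tlr5 was at -0.13 and Nod2 at 0.057, and with upper quartile scaling Nod2 was at 0.025. Leaving out 1 library, Tlr7 ran from -0.89 to 0.11, Tlr9 from -3.39 to 0.56, Nod2 from -0.16 to 0.17, Ly96 from -0.039 to 0.26 and Ripk2 from -0.11 to 0.19. The cause of these reversals was not tested. Of 252 values of the named pathway genes, 6 reversed, 38 lost and 2 gained the call. The count of members whose groups were apart was 3 under both other scalings too, an alternative chosen after seeing the data. Depth limits Tlr9 most, with 0 to 148 counts per library.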
